A study of Homo sapiens with 12 samples.

Results

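NONO eCLIP peaks were examined in the transcripts of 4 genes of the cytoskeleton, ACTN4, ACTB, PLEC and SEPT9, which encode an actin crosslinker, beta-actin, a linker of intermediate filaments and a septin. The members were all peaks that the authors' annotation assigned to 1 of these genes in the 6 deposited lists. They numbered 413 of 26351 peaks (1.57%), with 41 in ACTN4, 14 in ACTB, 110 in PLEC and 248 in SEPT9. The cells were 22Rv1, a human prostate cancer line, in all groups. They were exposed for 4 h to 20 µM SKBG-1(R) in 0.04% DMSO, to 20 µM SKBG-1(S) in 0.04% DMSO, or to 0.04% DMSO alone. The compounds are mirror-image forms of 1 molecule, of which the (R) form is known to bind NONO covalently and the (S) form served as its control. Each group had 2 immunoprecipitations, each with its own input library, and 1 peak list came from each immunoprecipitation. The labels do not say whether the replicates were separate cultures, so the spread between them may be partly technical.

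NONO belongs to the DBHS family of nuclear RNA-binding proteins, found in paraspeckles and at sites of transcription. There it contacts introns of unspliced transcripts. In eCLIP, UV light joins proteins to the RNA they touch, the protein is immunoprecipitated, and the RNA that comes with it is sequenced next to input RNA of the same cells. Alpha-actinin-4 (ACTN4) crosslinks actin filaments, and beta-actin (ACTB) is the building block of those filaments in most cells. Plectin (PLEC) ties intermediate filaments to actin and to cell junctions, and septin 9 (SEPT9) is a GTP-binding protein that assembles with other septins into filaments. PLEC and SEPT9 are known for many alternative first exons, which give proteins with different amino ends.

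The lists were of very unequal length. They held 1953 and 14847 peaks in SKBG-1(R), 1237 and 3967 in SKBG-1(S), and 669 and 3678 in DMSO (replicates 1 and 2), and the replicate 2 list was the longer one in each group. Peak numbers are therefore given with peaks per 10000 peaks of the same list. No read counts were given, so the depth of the libraries is unknown, and a gene without a peak may have been bound below the limit of detection. The prostate genes KLK3, KLK2 and FOLH1, looked up as a check of the cell line, had 0 peaks in all lists.

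Most of the 413 peaks lay in introns, whose sequence was not used here, so the sequences shown are those of annotated exons under a peak. They were read from the GENCODE 29 transcripts (GRCh38), run 5′ to 3′ on the transcribed strand, and have in capitals the bases covered by a peak in every list named. The first lies under a SKBG-1(R) replicate 1 peak in exon 1 of the noncoding transcript ACTN4-207 (chr19:38648193-38648260, plus strand), near the 5′ end of the gene. That peak was in 1 list only, at a log2 enrichment over input of 3.04, near the minimum of 3 in the deposited lists.
ACTN4-207 exon 1: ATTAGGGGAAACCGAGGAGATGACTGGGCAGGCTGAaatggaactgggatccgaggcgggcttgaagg
The next is the middle of the only ACTB peak within the main beta-actin transcription unit, again from SKBG-1(R) replicate 1. It lies in the 5′ UTR of the alternative transcript ACTB-203 (chr7:5529842-5529871, minus strand). That peak too was in 1 list only, at a log2 enrichment of 3.50. The highest −log10 p of the ACTB peaks in that list was 3.19, near the deposited minimum of 3.
ACTB-203 5′ UTR: GGGGTTGGGGCCTGGCTTCCTGCCGCGCGC
The remaining stretches come from 3 alternative first parts of SEPT9, where lists of different groups had peaks at the same place. The coding part of exon 2 of SEPT9-241 (chr17:77322852-77322948, plus strand) was under peaks of SKBG-1(R) replicate 2 and DMSO replicate 2.
SEPT9-241 exon 2: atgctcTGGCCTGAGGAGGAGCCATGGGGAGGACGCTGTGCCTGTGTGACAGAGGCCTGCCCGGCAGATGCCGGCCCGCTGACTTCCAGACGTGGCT
In the 5′ UTR of SEPT9-202 an upstream site (chr17:77373280-77373309) was under peaks of SKBG-1(R) replicate 2 and SKBG-1(S) replicate 2, and a downstream site (chr17:77373430-77373459) was under peaks of SKBG-1(R) replicate 2 and DMSO replicate 2.
SEPT9-202 upstream site: GGGGGCGGGGCGGGGGCGCAGCGCGCGGGG
SEPT9-202 downstream site: GGCCCGGGCCCCGCCGGGGGCGCTTCCTCG
Exon 1 of the noncoding transcript SEPT9-230 (chr17:77374177-77374357) was covered at its 3′ end by peaks of SKBG-1(R) replicate 2 and DMSO replicate 2.
SEPT9-230 exon 1: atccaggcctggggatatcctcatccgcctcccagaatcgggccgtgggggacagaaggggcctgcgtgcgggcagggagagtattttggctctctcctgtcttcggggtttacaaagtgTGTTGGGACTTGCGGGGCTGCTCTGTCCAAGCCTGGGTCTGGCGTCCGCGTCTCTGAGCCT
Of the bases in capitals, 20 of 36 were G or C in ACTN4-207 and 24 of 30 in ACTB-203. In SEPT9 they were 62 of 91 in SEPT9-241, 29 of 30 at the upstream site and 27 of 30 at the downstream site of SEPT9-202, and 40 of 61 in SEPT9-230. The stretches are exonic and were chosen after the peaks were seen. These numbers were not compared with other sequence, and they do not describe the intronic peaks.

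The 4 genes fell into 2 patterns over the lists. ACTN4 and ACTB had peaks in both SKBG-1(R) lists and both SKBG-1(S) lists and in neither DMSO list. This was the case for 2.3% of the 479 genes tested (those with 10 or more peaks in all), 11 genes. PLEC and SEPT9 had peaks almost only in replicate 2 lists, whatever the treatment. The replicate 2 lists held 109 of the 110 PLEC peaks and all 248 SEPT9 peaks, against 17 of 41 in ACTN4 and 10 of 14 in ACTB. At least 90% of the peaks were in replicate 2 lists for 49.7% of the tested genes. SEPT9 was also among the 27.8% of genes with 0 peaks in all replicate 1 lists. ACTB, PLEC and SEPT9 had their highest number of peaks in SKBG-1(R) replicate 2, the longest list, as did 81.4% of tested genes, whereas ACTN4 had its highest number in SKBG-1(R) replicate 1.

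**Figure D1:**
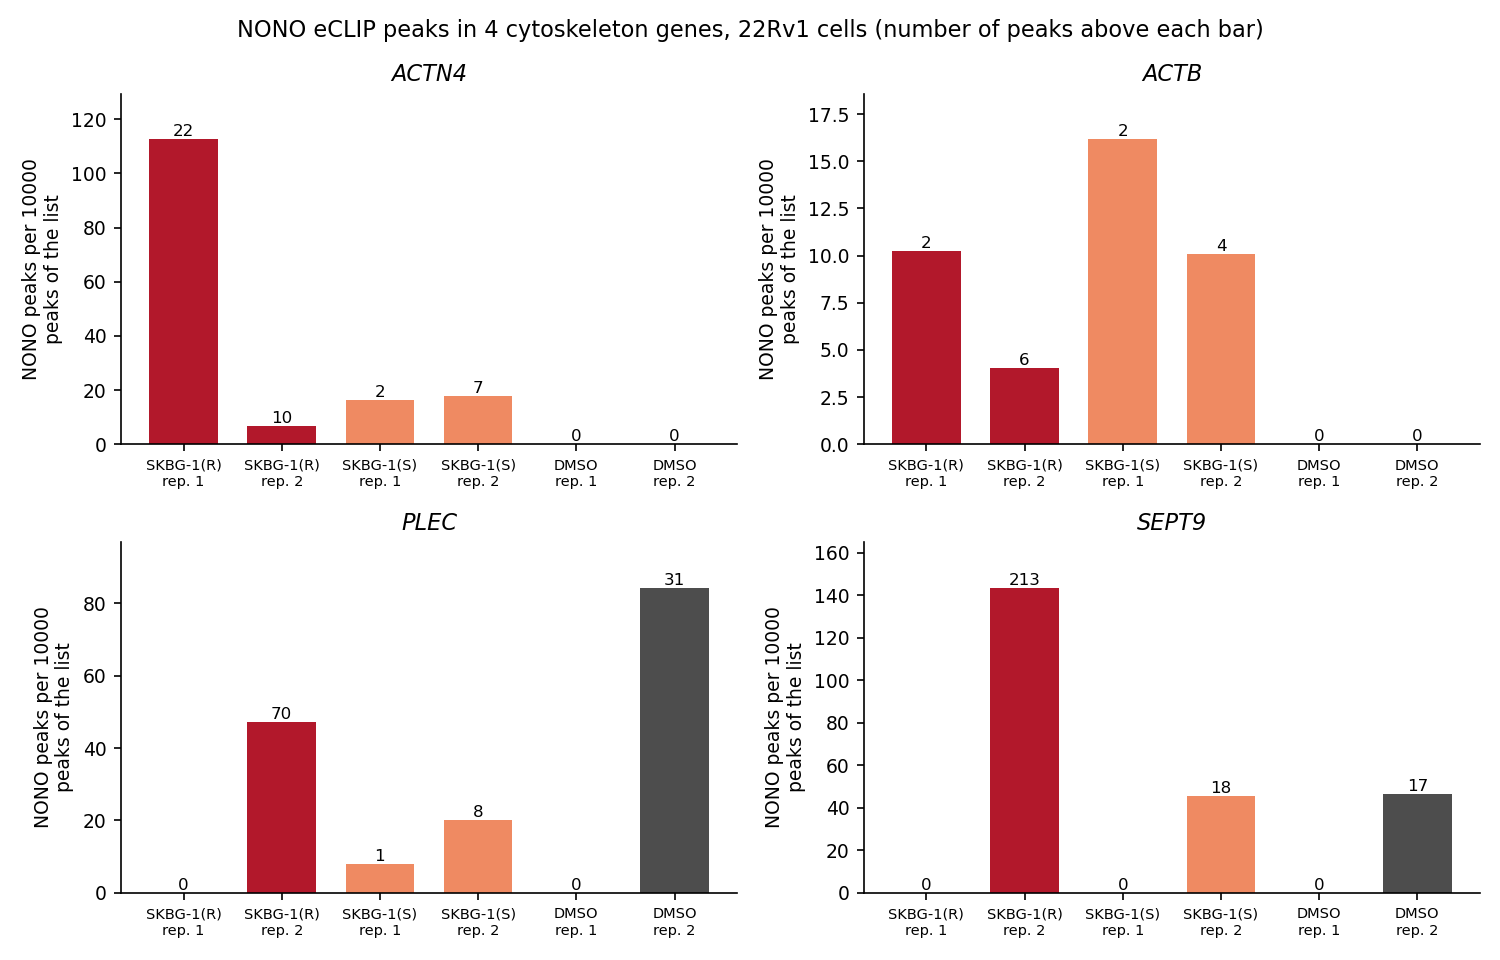
NONO peaks in each gene per 10000 peaks of the list (y axis, separate scales) in the 2 lists of SKBG-1(R), SKBG-1(S) and DMSO, with the number of peaks above each bar. ACTN4 and ACTB have bars in the 4 compound lists and 0 in the DMSO lists, while SEPT9 has bars in replicate 2 lists only and PLEC has 1 peak outside them.

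ACTN4 (ENSG00000130402.11, chr19:38647649-38731583 of GRCh38, plus strand) had 22 and 10 peaks in SKBG-1(R) replicates 1 and 2, 2 and 7 in SKBG-1(S), and 0 and 0 in DMSO. Per 10000 peaks of the list these were 112.6 and 6.74 in SKBG-1(R), 16.2 and 17.6 in SKBG-1(S), and 0 and 0 in DMSO. All 4 compound values were thus above both DMSO values. The SKBG-1(R) lists differed widely, and the SKBG-1(S) values lay between them. The means were 59.7 ± 74.9 in SKBG-1(R), 16.9 ± 1.04 in SKBG-1(S) and 0 in DMSO (SD, n = 2). In SKBG-1(R) replicate 1, ACTN4 ranked 10 among all genes by number of peaks, against 272 in SKBG-1(R) replicate 2.

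A limit of 3 peaks over both DMSO lists, the number that a count of 0 allows, is 6.90 per 10000. Summed over the lists of a group, ACTN4 had 19.1 per 10000 in SKBG-1(R), 2.76-fold this limit. In SKBG-1(S) it had 17.3 per 10000, 2.51-fold the limit. The limit covers the counting error of the DMSO lists only, with the compound values taken as exact, so these folds are not lower bounds. Within replicate numbers, the 112.6 per 10000 of SKBG-1(R) replicate 1 was 2.51-fold the 44.8 that 0 peaks allow in DMSO replicate 1. The 17.6 of SKBG-1(S) replicate 2 was 2.16-fold the limit of DMSO replicate 2. These folds are not lower bounds either, and the other compound lists did not exceed the limit. The 6.74 per 10000 of SKBG-1(R) replicate 2 was under the 8.16 per 10000 that 0 peaks allow in DMSO replicate 2, and the 2 peaks of SKBG-1(S) replicate 1 were under the limit of DMSO replicate 1. In those lists a difference from DMSO was not detectable at this depth.

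All 479 genes were tested by limma on log2 peaks per 10000, with a prior count added to each number of peaks. The prior count was 2 at the mean list size and was scaled to the size of each list. The test called no gene at a Benjamini-Hochberg adjusted p of 0.05 (0%) in any of the 3 comparisons. At an unadjusted p under 0.05 it had 15 genes (3.13%) in SKBG-1(R) against DMSO, 6 (1.25%) in SKBG-1(S) against DMSO and 5 (1.04%) in SKBG-1(R) against SKBG-1(S). ACTN4 was 1 of the 15, with a log2 fold difference of 3.00 ± 1.17 (SE), a 95% interval of 0.58 to 5.42 and an adjusted p of 0.993 by limma. In SKBG-1(S) against DMSO its log2 fold difference was 2.24 ± 1.17, with an interval of -0.19 to 4.66 and an adjusted p of 1 by limma. Without SKBG-1(R) replicate 1 the value for SKBG-1(R) was 1.40. Because DMSO was at 0, these folds depend on the prior count added and are not bounds. Both SKBG-1(R) values exceeded both DMSO values for 10.4% of genes tested, and both SKBG-1(S) values did so for 13.4%.

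A Cochran-Mantel-Haenszel test on numbers of peaks, stratified by replicate number, takes every peak as independent. It called 12.3% of genes in SKBG-1(R) against DMSO, 1.67% in SKBG-1(S) against DMSO and 16.3% in SKBG-1(R) against SKBG-1(S). ACTN4 was called in SKBG-1(R) against DMSO, with a log2 ratio of 3.35 and an adjusted p of 0.028, and missed in SKBG-1(S) against DMSO, with an adjusted p of 0.338. Peaks of 1 gene are not independent: 14 of the 41 ACTN4 peaks touched the next one end to end. The test therefore compares these lists and not the conditions.

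All 41 ACTN4 peaks lay in intron 1 of ACTN4-201, the longest transcript, which spans 52.7 kb or 62.8% of the gene. Over all genes intron 1 held from 52.1% to 70.4% of the peaks of a list that were counted by intron, 23140 of the 26351 peaks over all lists. Within the intron, 26 of the 41 peaks were in the first 10 kb of the gene. All 9 SKBG-1(S) peaks were there, the farthest at 2.64 kb from the start of the gene. SKBG-1(R) had 13 of 22 and 4 of 10 peaks there, and its others lay as far as 28.9 and 39.2 kb along the gene. The median distance of ACTN4 peaks to the nearest upstream transcript start was 1534.5 and 23948.5 nt in the SKBG-1(R) lists, against 668.5 and 4834 nt for all peaks of the same lists. It was 188.5 and 1509.5 nt in the SKBG-1(S) lists, against 775.5 and 1349 nt for all peaks there. ACTN4 peaks thus lay farther from a start than the median of their list in 3 of 4 lists, a difference that was not tested.

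Of the 41 ACTN4 peaks 17 (41.5%) overlapped a peak of another list, against 52.1% of all peaks. Within lists the share was 7 of 22 in SKBG-1(R) replicate 1, where it was 74.7% over all genes, and 2 of 10 in SKBG-1(R) replicate 2, where it was 33.0%. Peaks that shared at least 1 nt merged into 29 regions, of which 24 (82.8%) came from 1 list, against 76.8% of regions over all genes. The region chr19:38649598-38649860 had peaks in both SKBG-1(R) lists and the SKBG-1(S) replicate 2 list, with highest log2 enrichments over input of 3.77, 3.62 and 4.54. The region chr19:38647946-38648097, centred 0.372 kb from the start of the gene, had peaks in the SKBG-1(R) replicate 1 list and both SKBG-1(S) lists, at 4.53, 3.49 and 3.10. Another region, chr19:38649346-38649429, was shared by the replicate 2 lists of SKBG-1(R) and SKBG-1(S), at 3.35 and 4.72. Between the SKBG-1(R) lists 1 of 22 replicate 1 peaks (4.55%) overlapped 1 of 10 replicate 2 peaks, against 54.4% of the replicate 1 peaks of all genes. Both SKBG-1(S) replicate 1 peaks and 5 of 7 SKBG-1(S) replicate 2 peaks overlapped a SKBG-1(R) replicate 1 peak.

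ACTB (ENSG00000075624.14, chr7:5527147-5563784, minus strand) had 2 and 6 peaks in SKBG-1(R), 2 and 4 in SKBG-1(S), and 0 and 0 in DMSO. Per 10000 these were 10.2 and 4.04 in SKBG-1(R), 16.2 and 10.1 in SKBG-1(S), and 0 and 0 in DMSO. The compound lists were again all above the DMSO lists, and the SKBG-1(R) and SKBG-1(S) values overlapped. The means were 7.14 ± 4.38 in SKBG-1(R), 13.1 ± 4.30 in SKBG-1(S) and 0 in DMSO (SD, n = 2). Summed over a group, SKBG-1(R) had 4.76 per 10000, below the 6.90 that 0 peaks allow in DMSO, so that no difference was detectable at this depth. SKBG-1(S) had 11.5 per 10000, 1.67-fold that limit. The limit covers the counting error of the DMSO lists only and not that of the 6 SKBG-1(S) peaks, so this fold is not a lower bound. Within replicate numbers, the 10.1 per 10000 of SKBG-1(S) replicate 2 was 1.24-fold the 8.16 that 0 peaks allow in DMSO replicate 2. That value rests on 4 peaks, whose counting error is not covered, and gives no lower bound either. The 16.2 per 10000 of SKBG-1(S) replicate 1 was under the 44.8 that 0 peaks allow in DMSO replicate 1, so no difference was detectable there.

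ACTB was not called in any comparison. Its log2 fold difference was 1.31 ± 1.06 (SE) in SKBG-1(R) against DMSO, with a 95% interval of -0.90 to 3.51 and an adjusted p of 0.993 by limma. In SKBG-1(S) against DMSO it was 1.94 ± 1.06, with an interval of -0.27 to 4.14 and an adjusted p of 1 by limma. The Cochran-Mantel-Haenszel test did not call it either, with adjusted p of 0.598 and 0.692.

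The ACTB peaks were not in the body of the beta-actin mRNA. All 14 lay in intron 1 of the long transcript ACTB-205, and 13 of them lay 10.985 to 29.3 kb upstream of the start of ACTB-201, the main beta-actin transcript. The remaining peak is the SKBG-1(R) replicate 1 site in ACTB-203 whose sequence is printed above. The first 10 kb of the gene held 12 of the 14 peaks. The median distance to the nearest upstream transcript start, from 3709.75 to 7436.5 nt, was longer than that of all peaks of the list in each of the 4 lists. At the region chr7:5555282-5555487 peaks were found in all 4 compound lists, with highest log2 enrichments of 3.43 and 3.02 in the SKBG-1(R) lists and 3.45 and 3.01 in the SKBG-1(S) lists. Those enrichments were near the minimum of 3 that the deposited lists hold. Also shared were chr7:5555890-5555954, at 3.98 (SKBG-1(R) replicate 2) and 3.24 (SKBG-1(S) replicate 2), and chr7:5555158-5555224, at 3.86 and 3.19 in the SKBG-1(S) lists. Of the 14 ACTB peaks, 9 overlapped a peak of another list.

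**Figure D2:**
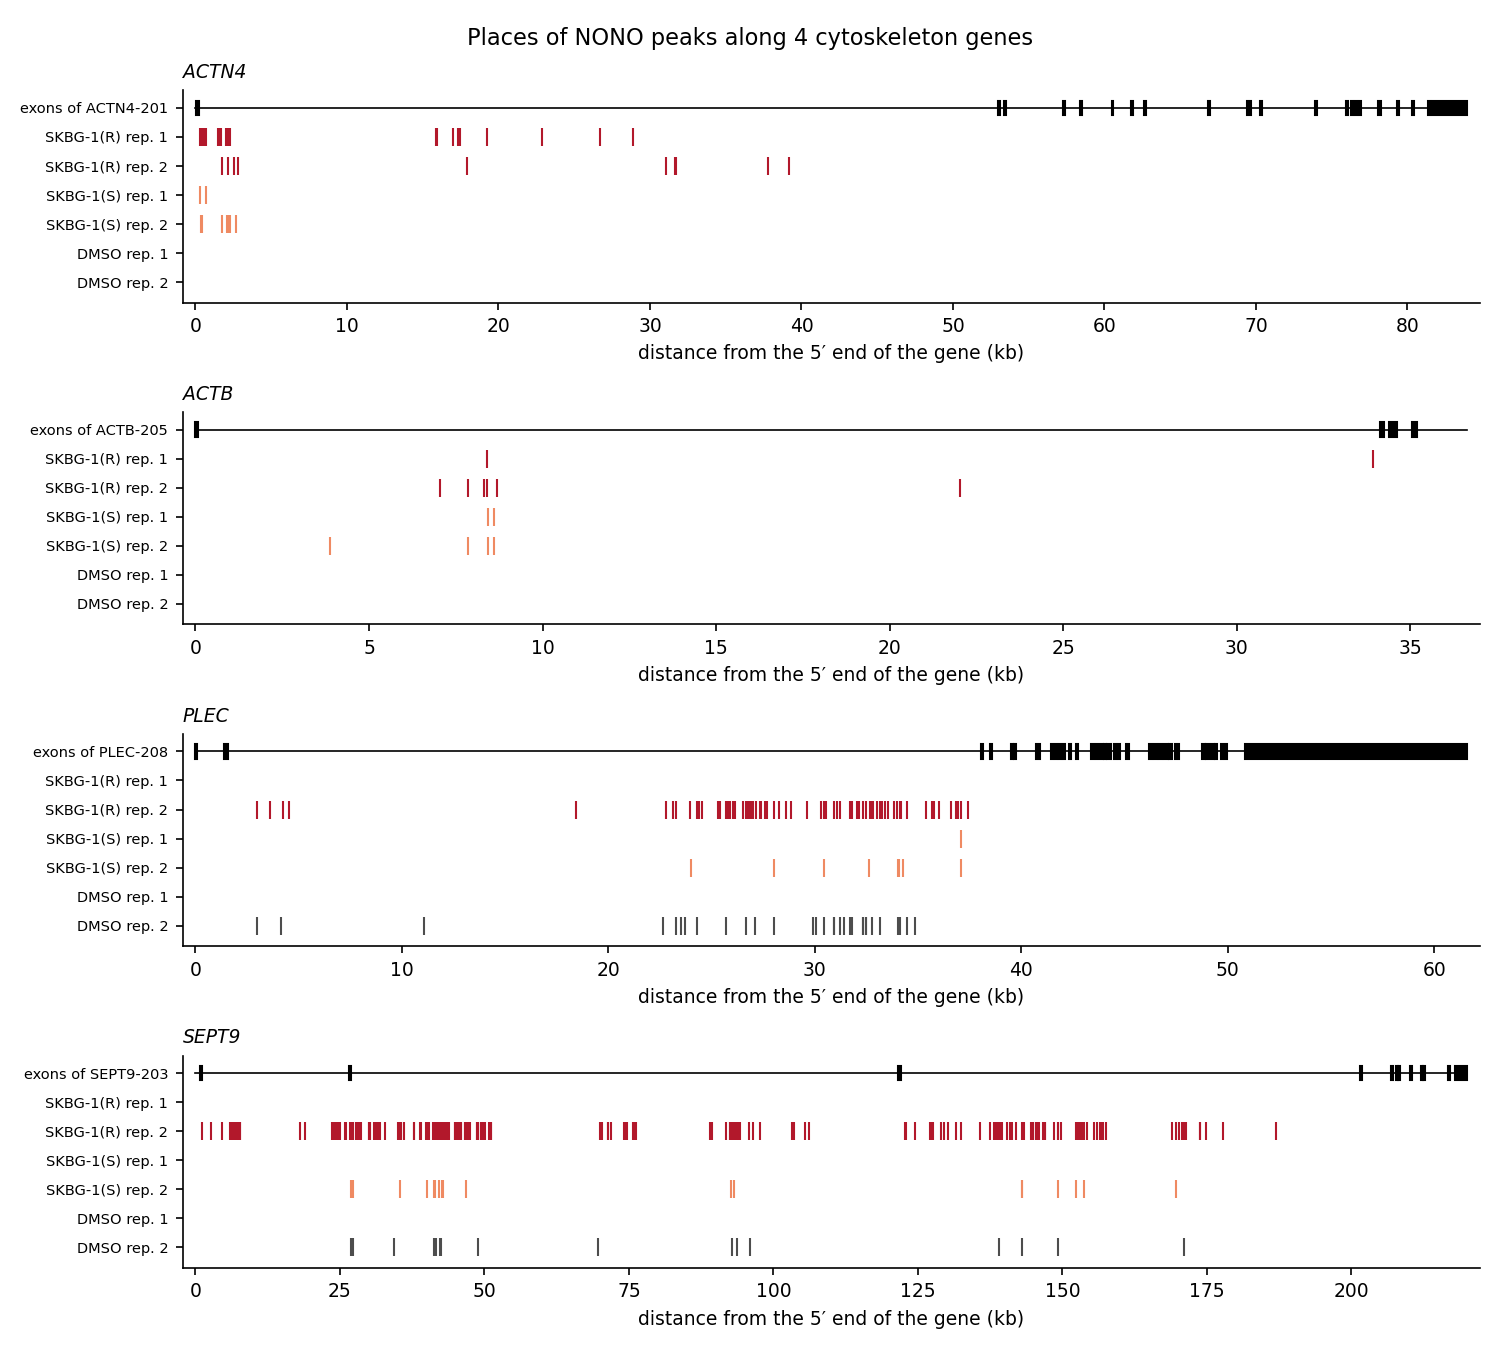
Each tick is the centre of 1 NONO peak, by its distance in kb from the 5′ end of the gene (x axis), with 1 row per list and the exons of the longest transcript on top. ACTN4 and PLEC peaks lie in 1 intron each, 12 of the 14 ACTB peaks lie in the first 10 kb, and SEPT9 peaks spread over introns 1 to 3.

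PLEC had 0 and 70 peaks in SKBG-1(R), 1 and 8 in SKBG-1(S), and 0 and 31 in DMSO. Per 10000 these were 0 and 47.1 in SKBG-1(R), 8.08 and 20.2 in SKBG-1(S), and 0 and 84.3 in DMSO. The high values were those of the replicate 2 lists, and the 3 groups overlapped. Among those lists the DMSO value was the highest, and there PLEC ranked 15 among all genes by number of peaks. The means were 23.6 ± 33.3 in SKBG-1(R), 14.1 ± 8.54 in SKBG-1(S) and 42.1 ± 59.6 in DMSO (SD, n = 2). The log2 fold difference by limma was -0.39 ± 1.34 (SE) in SKBG-1(R) against DMSO, with a 95% interval of -3.16 to 2.38. It was -0.19 ± 1.34 in SKBG-1(S) against DMSO, with an interval of -2.96 to 2.58, and the adjusted p-values were 0.993 and 1 by limma. Leaving out SKBG-1(R) replicate 1 turned the first of these to 1.43, and leaving out DMSO replicate 2 turned it to 1.77. Leaving out SKBG-1(S) replicate 1 turned the second to 0.36, and leaving out DMSO replicate 2 turned it to 1.99. By the Cochran-Mantel-Haenszel test PLEC was among the 1.67% of genes called in SKBG-1(S) against DMSO, with a log2 ratio of -1.86, and it was not called in SKBG-1(R) against DMSO. That call rests almost wholly on 1 list against 1, 8 peaks in SKBG-1(S) replicate 2 and 31 in DMSO replicate 2, and 26 of the 110 PLEC peaks touched the next one. It sets those lists against each other and is no test of the compound.

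All 110 PLEC peaks lay in intron 2 of PLEC-208, which spans 36.5 kb or 59.2% of the gene (ENSG00000178209, chr8:143915147-143976734, minus strand). None was downstream of that intron, where the exons shared by the plectin isoforms lie. A place in an early intron was common in these lists. Over all genes introns 1 to 3 held from 79.9% to 88.4% of the peaks of a list that were counted by intron. Of 13 starts of coding PLEC transcripts 10 lie within the intron, and 109 of the 110 peaks lay between the first and the last start of its coding transcripts. Between 20 and 40 kb along the gene there were 102 peaks. In 10 peaks an annotated exon of an alternative transcript was covered, and the authors' classes for PLEC were 67 peaks in introns away from splice sites, 33 in introns within 500 nt of one, 6 in 5′ UTRs and 4 in coding exons. Within 5 kb downstream of a transcript start were 109 PLEC peaks (99.1%), against 57.2% of the 25935 peaks of all genes with such a distance, a difference that was not tested. The median distance of PLEC peaks to the nearest upstream start was 1089.75 nt in SKBG-1(R) replicate 2, 1206.5 nt in SKBG-1(S) replicate 2 and 894 nt in DMSO replicate 2, against 4834, 1349 and 3189.25 nt for all peaks of those lists. For the 1 peak of SKBG-1(S) replicate 1 it was longer than that of its list. Such distances depend also on how densely starts are annotated, and PLEC has 14 starts in 61.6 kb. Other places in the intron were not compared, so the values do not show that the peaks favour starts.

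Of the 110 PLEC peaks 53 (48.2%) overlapped a peak of another list, near the 52.1% of all peaks. Of the 70 SKBG-1(R) replicate 2 peaks 20 (28.6%) overlapped a DMSO replicate 2 peak, against 18.8% over all genes, and of the 31 DMSO replicate 2 peaks 22 (71.0%) overlapped a SKBG-1(R) replicate 2 peak, against 63.4%. Of the 8 SKBG-1(S) replicate 2 peaks 7 overlapped a SKBG-1(R) replicate 2 peak, against 61.9% over all genes. The peaks merged into 78 regions, of which 57 (73.1%) came from 1 list, 47 of them from SKBG-1(R) replicate 2. The region chr8:143942560-143942797 had peaks in all 3 replicate 2 lists, with highest log2 enrichments of 5.39 in SKBG-1(R), 3.64 in SKBG-1(S) and 4.65 in DMSO. The region chr8:143946270-143946341 was at 3.66 in SKBG-1(R), 3.79 in SKBG-1(S) and 4.57 in DMSO. At chr8:143939596-143939720 lay the 1 PLEC peak of a replicate 1 list, at 3.86 in SKBG-1(S) replicate 1, beside 3.58 and 3.89 in the replicate 2 lists of SKBG-1(R) and SKBG-1(S).

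SEPT9 had the most peaks of the 4 genes. It had 0 and 213 in SKBG-1(R), 0 and 18 in SKBG-1(S), and 0 and 17 in DMSO. Per 10000 these were 0 and 143.5 in SKBG-1(R), 0 and 45.4 in SKBG-1(S), and 0 and 46.2 in DMSO. The replicate 1 lists of all 3 groups were at 0, and of the replicate 2 lists SKBG-1(R) was the highest. The means were 71.7 ± 101.4 in SKBG-1(R), 22.7 ± 32.1 in SKBG-1(S) and 23.1 ± 32.7 in DMSO (SD, n = 2). By limma the log2 fold difference was 0.77 ± 1.48 (SE) in SKBG-1(R) against DMSO, with a 95% interval of -2.29 to 3.83 and an adjusted p of 0.993. In SKBG-1(S) against DMSO it was -0.01 ± 1.48, with an interval of -3.07 to 3.05 and an adjusted p of 1 by limma. Leaving out SKBG-1(R) replicate 2 turned the first of these to -1.33, leaving out DMSO replicate 1 turned it to -1.06, and leaving out SKBG-1(R) replicate 1 took it to 3.36. The second was 1.80 without SKBG-1(S) replicate 1 and 1.75 without DMSO replicate 2, and it was -1.75 without SKBG-1(S) replicate 2 and -1.86 without DMSO replicate 1. By the Cochran-Mantel-Haenszel test SEPT9 was among the 12.3% of genes called in SKBG-1(R) against DMSO, with a log2 ratio of 1.58, and it was not called in SKBG-1(S) against DMSO. Only the replicate 2 lists carried SEPT9 peaks, and 54 of the 248 touched the next one, so the call sets 1 list against 1 and is no test of the compound.

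SEPT9 (ENSG00000184640.17, chr17:77280569-77500596, plus strand) was also the longest of the genes, at 220 kb. Its 248 peaks lay in the introns between its alternative starts, 24 in intron 1, 148 in intron 2 and 76 in intron 3 of SEPT9-203. These introns take 11.6%, 43.1% and 36.1% of the length of the gene. The stretch from 40 to 50 kb held 63 peaks, the most of any 10 kb. The downstream exons, which code for the GTP-binding domain common to the isoforms, had 0 peaks. Over all genes introns 1 to 3 held most of the peaks counted by intron as well. Their share was 79.9% in SKBG-1(R) replicate 2, 85.1% in SKBG-1(S) replicate 2 and 86.2% in DMSO replicate 2. Annotated exons of alternative transcripts were covered by 33 peaks, among them those whose sequences are printed above. In 11 peaks a gene is annotated on the other strand as well.

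All 18 SEPT9 peaks of SKBG-1(S) replicate 2 overlapped a SKBG-1(R) replicate 2 peak, as did 12 of the 17 of DMSO replicate 2. In the other direction, 20 and 14 of the 213 SKBG-1(R) replicate 2 peaks overlapped them. Over all genes, 61.9% of SKBG-1(S) replicate 2 peaks and 63.4% of DMSO replicate 2 peaks overlapped a SKBG-1(R) replicate 2 peak, and 20.3% and 18.8% of SKBG-1(R) replicate 2 peaks overlapped theirs. Of 213 merged SEPT9 regions 191 (89.7%) came from 1 list, 186 of them from SKBG-1(R) replicate 2, the longest list, and 5 were in all 3 replicate 2 lists. At chr17:77423535-77423675 the highest log2 enrichment was 4.74 in SKBG-1(R), 4.21 in SKBG-1(S) and 3.52 in DMSO. At chr17:77321840-77322101 it was 3.90 in SKBG-1(R), 3.53 in SKBG-1(S) and 4.35 in DMSO. At chr17:77429690-77429829 it was 3.68 in SKBG-1(R), 3.10 in SKBG-1(S) and 3.83 in DMSO. The order of the replicate 2 lists thus differed from site to site. Each list has its own input, and these differences between lists were not tested.

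The median enrichment of ACTB peaks was below that of all peaks in each of the 4 lists that hold them, and that of PLEC peaks was above it in each of the 4 that hold them, which was not tested. The deposited log2 enrichment has a minimum of 3, so only the values above it can be compared. Its median in ACTN4 was 3.67 and 3.55 in the SKBG-1(R) lists and 3.59 and 3.77 in the SKBG-1(S) lists, against medians over all peaks of 3.77 and 3.75 for the SKBG-1(R) lists and 3.76 and 3.64 for the SKBG-1(S) lists. In ACTB it was 3.46 and 3.42 in the SKBG-1(R) lists and 3.66 and 3.21 in the SKBG-1(S) lists. In the replicate 2 lists the PLEC medians were 3.80 in SKBG-1(R), 3.70 in SKBG-1(S) and 3.66 in DMSO, and its 1 peak in SKBG-1(S) replicate 1 was at 3.86. The SEPT9 medians there were 3.88 in SKBG-1(R), 3.56 in SKBG-1(S) and 3.59 in DMSO, against list medians of 3.75, 3.64 and 3.59. The 669 peaks with the highest deposited −log10 p make up 34.3% of SKBG-1(R) replicate 1, 4.51% of SKBG-1(R) replicate 2, 54.1% of SKBG-1(S) replicate 1, 16.9% of SKBG-1(S) replicate 2 and 18.2% of DMSO replicate 2. Among them were 7 of the 22 ACTN4 peaks (31.8%) of SKBG-1(R) replicate 1 and 1 of the 2 ACTB peaks of SKBG-1(S) replicate 1. PLEC and SEPT9 had 0 there in every list, including 0 of 31 PLEC peaks and 0 of 17 SEPT9 peaks in DMSO replicate 2.

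**Figure D3:**
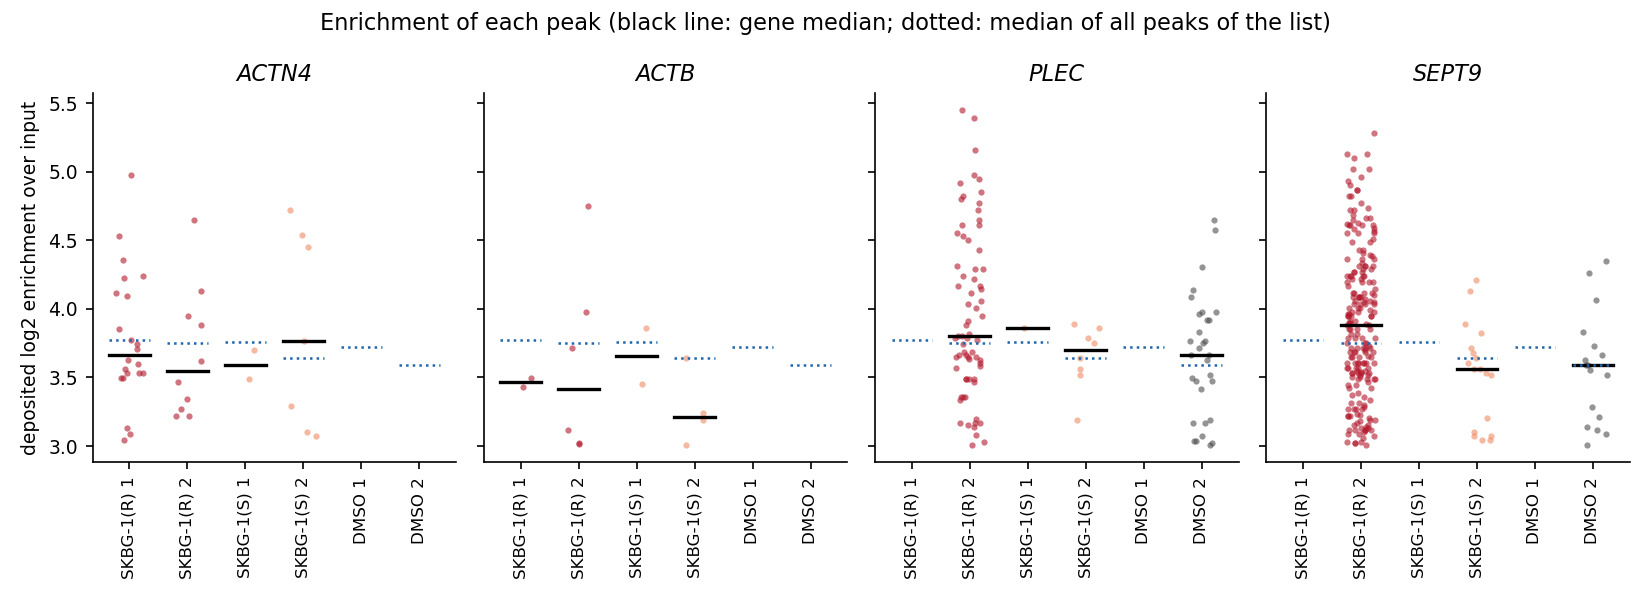
Deposited log2 enrichment over input of each peak (y axis) by gene and list (x axis), with the median of the gene (black line) and of all peaks of the list (dotted line). The ACTB medians lie below those of their lists in all 4 lists that hold it, and the PLEC medians lie above them in all 4 that hold PLEC.

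Compared per length of gene, the order of the 4 genes differed between lists. In peaks per 10000 per 10 kb of gene, SKBG-1(R) replicate 2 had 7.66 for PLEC, 6.52 for SEPT9, 1.10 for ACTB and 0.802 for ACTN4. In SKBG-1(S) replicate 2 these levels were closer, at 3.27 for PLEC, 2.75 for ACTB, 2.10 for ACTN4 and 2.06 for SEPT9. In DMSO replicate 2 PLEC was at 13.7 and SEPT9 at 2.10, with ACTB and ACTN4 at 0. In SKBG-1(R) replicate 1 ACTN4 was at 13.4 and ACTB at 2.80, with PLEC and SEPT9 at 0.

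The stereoisomers were compared for each of the 4 genes at the same dose and time, and none differed by the limma test. For SKBG-1(R) against SKBG-1(S), the log2 fold difference was 0.76 ± 1.17 (SE) in ACTN4, with a 95% interval of -1.66 to 3.18. It was -0.63 ± 1.06 in ACTB, with an interval of -2.83 to 1.58. In PLEC it was -0.20 ± 1.34, with an interval of -2.97 to 2.57, and in SEPT9 0.78 ± 1.48, with an interval of -2.28 to 3.84. The adjusted p was 0.995 by limma for each of the 4 genes. The intervals are wide and do not show that the compounds act alike. Leaving out SKBG-1(R) replicate 1 turned the ACTN4 value to -0.95 and the PLEC value to 1.58. The SEPT9 value became -1.32 without SKBG-1(R) replicate 2 and -1.03 without SKBG-1(S) replicate 1. The Cochran-Mantel-Haenszel test had SEPT9 among its 16.3% of genes called, with a log2 ratio of 1.61, which again sets SKBG-1(R) replicate 2 against SKBG-1(S) replicate 2 and is no test of the compounds.

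**Figure D4:**
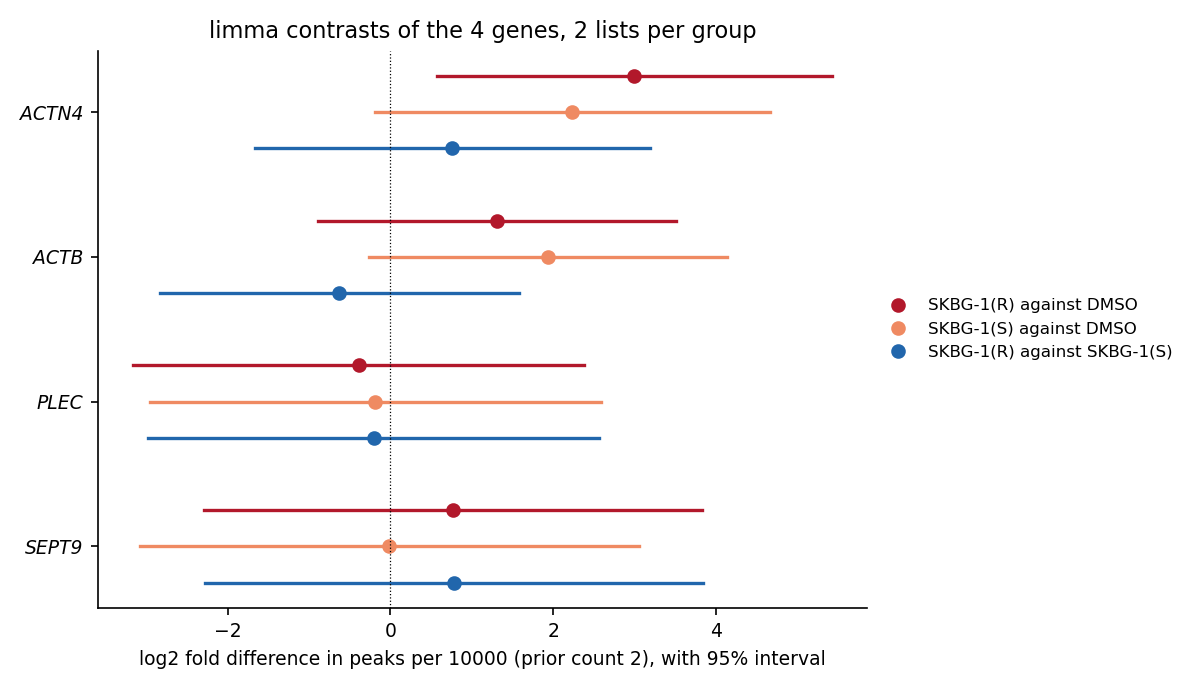
Log2 fold difference in peaks per 10000 (x axis) with its 95% interval, for the 4 genes (rows) in the 3 comparisons (colours). There were 2 lists per group, and a prior count of 2 scaled to list size was added to each number of peaks. The interval of ACTN4 in SKBG-1(R) against DMSO, 0.58 to 5.42, is the 1 interval that does not include 0, and none passed the adjusted threshold.

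Genes with the most similar pattern were sought among the 479 tested genes by the Pearson correlation of log2 peaks per 10000 over the 6 lists. The values share the list totals and the gap between replicates, and the correlations are a description. The 3 nearest to ACTN4 were MTMR3 (r = 0.97), with 5 and 1 peaks in SKBG-1(R), 1 and 3 in SKBG-1(S) and 0 and 0 in DMSO, CTD-2547E10.2 (0.94) and GTF2I (0.93). Nearest to ACTB were ARHGEF2 (0.995), ATXN1 (0.989) and ATF3 (0.967). Nearest to PLEC were BAHCC1 (0.993), C7orf50 (0.984) and CSNK1G2 (0.977), each with at most 2 peaks in the replicate 1 lists. Nearest to SEPT9 were STK11 (0.9997), EEF1D (0.999) and RP11-331F4.5 (0.996), each with 0 peaks there.

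Beside the 4 genes, 141 symbols stood in 4 lists of cytoskeleton genes (actin and actin-binding proteins, plakins and intermediate filaments, septins, and tubulins and microtubule-binding proteins). Of these 23 had a peak, 7 had enough for the test, and 0 of 7 were called in either direction in any comparison. Their median log2 fold difference was 0.65 in SKBG-1(R) against DMSO, 0.39 in SKBG-1(S) against DMSO and -0.21 in SKBG-1(R) against SKBG-1(S). Over all 479 genes these medians were 0.23, 0.14 and -0.08. Among the actin-list genes with the most peaks beside ACTN4 and ACTB, MYH9, the heavy chain of nonmuscle myosin IIA, had 1 and 14 peaks in SKBG-1(R), 1 and 8 in SKBG-1(S), and 0 and 2 in DMSO. ACTN1, the close relative of ACTN4, had 0 and 5 peaks in SKBG-1(R), 0 and 1 in SKBG-1(S), and 0 and 0 in DMSO. TPM4 had 6 peaks in all and CAPZB had 5. The lamin gene LMNB2 had 1 and 33 peaks in SKBG-1(R), 1 and 9 in SKBG-1(S), and 1 and 10 in DMSO, and LMNB1 had 5 in all.

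Of the other septins, SEPT11 had 3 peaks and SEPT2 had 1. In the microtubule list ARHGEF2, a microtubule-bound activator of RhoA, had 4 and 13 peaks in SKBG-1(R), 4 and 9 in SKBG-1(S), and 0 and 0 in DMSO, so that it too was in all compound lists and in neither DMSO list. Its log2 fold difference in SKBG-1(S) against DMSO was 2.80 ± 1.07 (SE), with a 95% interval of 0.57 to 5.03 and an adjusted p of 1 by limma. MAP4, which stabilises microtubules, had 9 and 4 peaks in SKBG-1(R), 0 and 2 in SKBG-1(S), and 0 and 1 in DMSO. CLIP2 had 0 and 19 peaks in SKBG-1(R), 1 and 7 in SKBG-1(S), and 0 and 4 in DMSO. CLIP1 and KIF1A had 13 and 11 peaks in all.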

How the data were processed

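NONO was immunoprecipitated from UV-crosslinked (400 mJ) 22Rv1 cells grown for 40 h and treated for 4 h, and 12 single-end libraries were made, an immunoprecipitation and an input for each of 2 replicates in 3 groups. Groups and replicate numbers come from the sample titles. For every replicate the authors deposited a separate list of peaks enriched over the input. The submitters' processing notes name the tools cutadapt 1.9 and STAR 2.4.0i; the peak caller is not given in the sources used here. Each deposited peak has a −log10 p against input, from 3 to a cap of 400, and a log2 enrichment over input of at least 3. Both are the authors' own and served only to describe peaks, and to rank or filter them within a list. Each peak also carries the authors' gene and class of region. The notes name hg19 and hg38; all 1620 gene identifiers of peaks with 1 gene were found in GENCODE 29 (GRCh38), whose exons and transcript starts were used.

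The 4 genes and the lists of cytoskeleton genes were chosen with earlier results of these data known. The text names the 4 genes, the 3 genes nearest to each in pattern, the 5 other genes with the most peaks of each list (some genes are not reported here), and for each gene the 3 regions present in the most lists, ties going to the higher median enrichment. Sequences of those regions would need a genome of the build, which was not used here, so exonic stretches held by the reference transcripts were chosen after the peaks were seen. The counts of motifs planned for a genome were not made.

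Peaks were counted per gene with Python 3.11.15 and pandas 2.3.3. For 479 genes with at least 10 peaks, log2 peaks per 10000, with a prior count of 2 scaled to list size, were tested by limma 3.58.1 (R 4.3.3) with a trended prior variance, all 6 lists in 1 fit, at a Benjamini-Hochberg threshold of 0.05 over all genes tested. The number of peaks, 669 to 14847 per list, limits the precision, and an exact permutation test of 2 lists against 2 cannot go below 0.333. Alternatives changed the prior count, filter, scaling, limits on peaks, counting of peaks, test and lists included, or added the replicate number as a block. Overlap between lists needed 1 nt in common, strand included.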

Additional observations from a re-analysis of the deposited data

How the results depend on the processing

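No gene of the 4 was called by limma under any alternative, and all alternatives that changed a call were the Cochran-Mantel-Haenszel test. It called ACTN4 (3.35) and SEPT9 (1.58) in SKBG-1(R) against DMSO, PLEC (-1.86) in SKBG-1(S) against DMSO and SEPT9 (1.61) in SKBG-1(R) against SKBG-1(S), all as log2 ratios, and 59, 8 and 78 genes in these comparisons in place of 0. For SEPT9 and almost wholly for PLEC these calls set 1 list against 1, with peaks taken as independent, and compare those lists and not the conditions. The number of genes called in SKBG-1(R) against DMSO was 1 with genes of at least 5 peaks, with peaks of several genes counted for each, with summed widths and with the replicate block. ACTN4 and ACTB kept a positive log2 fold difference against DMSO under every alternative that gave a value. It ranged from 1.40 to 4.72 for ACTN4 and 0.68 to 2.75 for ACTB in SKBG-1(R), and from 0.85 to 3.99 and 1.10 to 3.61 in SKBG-1(S). PLEC changed sign in SKBG-1(R) against DMSO without scaling (0.56). In SKBG-1(S) against DMSO it did so with a prior count of 0.5 (0.51) and with summed widths (0.22). In SKBG-1(R) against SKBG-1(S) it did so with a prior count of 5 (0.059), no scaling (1.13), median-of-ratios scaling (0.52), a log2 enrichment of at least 4 (1.14), a −log10 p of at least 5 (1.49) and the Cochran-Mantel-Haenszel test (0.98). SEPT9 in SKBG-1(S) against DMSO was 0.037 without scaling and 0.018 with peaks within 20 nt joined, and ACTB in SKBG-1(R) against SKBG-1(S) was 0.21 without scaling. Why these values changed sign was not tested.

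Leaving out 1 list at a time gave these ranges. For SKBG-1(R) against DMSO they were 1.40 to 3.80 for ACTN4, 0.99 to 1.44 for ACTB, -2.64 to 1.77 for PLEC and -1.33 to 3.36 for SEPT9, with 0 to 23 genes called. For SKBG-1(S) against DMSO they were 1.56 to 2.44, 1.31 to 2.21, -2.38 to 1.99 and -1.86 to 1.80. For SKBG-1(R) against SKBG-1(S) they were -0.95 to 2.25, -1.06 to -0.19, -1.34 to 1.58 and -1.32 to 3.37, with 0 to 23 genes called. The 23 genes were called without SKBG-1(R) replicate 1, where the lone list of the group was assumed to vary like the others. The replicate numbers are only numbers in the labels. Replicate 2 minus replicate 1 differences correlated across 479 genes at 0.54 between SKBG-1(R) and DMSO, 0.58 between SKBG-1(S) and DMSO and 0.42 between the compounds. With the replicate block the ACTN4 adjusted p was 0.255 in SKBG-1(R) against DMSO and 0.964 in SKBG-1(S) against DMSO, and no call of the 4 genes changed. With lists cut to the 669 strongest peaks no member had the 10 peaks needed for the test, and with the limit on log2 enrichment or on −log10 p ACTB had too few. Counting overlap only where the shorter peak was covered by at least 50% left 17 of 41 ACTN4, 8 of 14 ACTB, 52 of 110 PLEC and 56 of 248 SEPT9 peaks shared with another list, against 17, 9, 53 and 57.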
